A study of Mus musculus with 12 samples.

Results

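Medullary thymic epithelial cells (mTECs) whose sample titles name the Psmb11 knockout were compared at 2 stages, MHC class II high cells (mTEC hi) and MHC class II low cells (mTEC lo), to ask whether medullary maturation is kept when the thymoproteasome gene is missing. The members are the 6 sequencing libraries of polyadenylated RNA with such a title, 3 of mTEC hi and 3 of mTEC lo, out of 12 libraries analysed here. The other 6 libraries, 3 of each cell type, carry WT titles and give the same contrast with the gene present. Cells came from the thymus of mice 6 to 8 weeks old; knockout mice are described as strain B6.B6CB-Psmb11tm1Smta (Psmb11-/-), a germline allele, and the WT mice as Psmb11+/+ of the same strain name. The labels contradict themselves in 4 libraries. Of the 6 titled KO, the hi and the lo library numbered 3 are given as WT by their source name and strain, and of the 6 titled WT, both libraries numbered 1 are given as Psmb11-deficient. The groups are therefore called titled KO and titled WT, and the counts of calls, both markers, Psmb8, the breadth of expression and the signs of the list medians are also given without the conflicting libraries. Whether the replicates are different mice is not stated in the labels; p-values then reflect only library-to-library spread, possibly technical.

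Psmb11 encodes beta5t, the catalytic proteasome subunit known from cortical thymic epithelial cells, where it shapes the peptides that select CD8+ T cells. mTECs are a separate epithelium, which shows the body's own antigens to thymocytes that have passed that step. As they mature, mTECs gain MHC class II, costimulatory ligands and the regulator Aire, and with Aire a wide range of genes otherwise used in other tissues. mTEC lo are mixed: they hold precursors, Ccl21-producing cells and cells that have passed the Aire stage, among them mimetic cells, which take on programmes of muscle, gut, skin or tuft cells. In RNA of a sorted population, fewer cells of a type and less RNA per cell cannot be told apart.

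Reads assigned to genes ranged from 42449759 to 86793594 in the 6 libraries titled KO, and from 38791960 in the shallowest of all 12. Replicates were distinct: no pair within a titled KO group came closer than a chi-square of 9.65 per gene. Levels are CPM, a gene's counts relative to the library total after TMM (a factor per library that balances the bulk of genes). Changes are log2 fold changes of mTEC hi over mTEC lo, so that 1 is a doubling. Their standard error (SE) is approximate, derived from the F statistic of the edgeR quasi-likelihood fit. It can be too small for genes with few reads in either cell type, as for the largest rises. A gene is called where its p, adjusted by Benjamini-Hochberg over all 26372 genes tested, is below 0.05. "Rose" and "fell" are used of called genes only, and mean higher or lower in mTEC hi.

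Psmb11 (chromosome 14, 54621433 to 54629556, plus strand, GRCm38) checks the titles. In libraries titled KO it was at 0.837, 1.29 and 1.11 CPM in mTEC hi and at 1.66, 1.198 and 1.25 CPM in mTEC lo. Under WT titles it was at 8.05, 10.2 and 7.46 CPM in mTEC hi and at 7.09, 12.3 and 7.76 CPM in mTEC lo. The titled KO libraries, those numbered 3 included, were all below all titled WT libraries. Reads of the gene did not vanish under the KO titles: 219 were counted over the 3 mTEC hi libraries and 246 over the 3 mTEC lo libraries. Between the cell types titled KO the log2 fold change was -0.36 (SE 0.25), which did not pass (edgeR adjusted p = 0.201). The neighbouring Psmb5, whose product beta5 is the constitutive counterpart of beta5t, stood between 33.2 and 40.7 CPM in all 6 libraries, and its log2 fold change of 0.02 did not pass either (SE 0.08, edgeR adjusted p = 0.809).

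The markers of maturation separated the cell types in the libraries titled KO. Aire (chromosome 10, 78030022 to 78043610, minus strand) was at 1968, 1653 and 1930 CPM in mTEC hi and at 18.9, 12.8 and 19.1 CPM in mTEC lo. The groups lie far apart, with a log2 fold change of 6.77 (SE 0.25) against 6.80 under WT titles. Without the libraries whose labels conflict it was 6.86. Ccl21a, the chemokine that draws newly selected thymocytes into the medulla (chromosome 4, 42772860 to 42773993, minus strand), ran the other way. It was at 229, 208 and 183 CPM in mTEC hi and at 3485, 4594 and 4217 CPM in mTEC lo, a log2 fold change of -4.31 (SE 0.12; -4.20 under WT titles and -4.18 without the conflicting libraries). Ccl21a has near-identical copies in the genome, so its reads may be split: the predicted copy Gm21541 had 35 uniquely counted reads over the mTEC lo libraries, yet the authors' RSEM estimates gave it a mean of 7184 TPM there, beside 21512 TPM for Ccl21a. By both markers each of the 6 libraries lay with its labelled cell type.

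**Figure D1:**
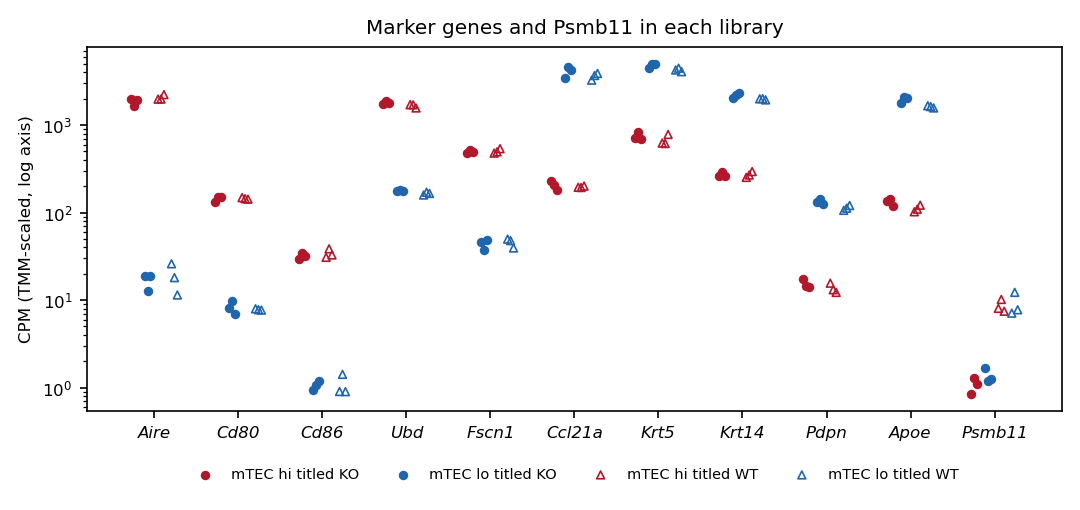
CPM of 5 markers of mature mTECs, 5 markers of immature or Ccl21-producing mTECs and Psmb11 in each of the 12 libraries, on a log axis; each point is 1 library, filled circles are titled KO and open triangles titled WT, red is mTEC hi and blue mTEC lo. Aire stood at 1653 to 1968 CPM in mTEC hi titled KO and at 12.8 to 19.1 CPM in mTEC lo, while Psmb11 separated the libraries by title and not by cell type.

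Of all genes tested, 75.3% were called in the libraries titled KO, so a call alone says little about any one gene. There were 11202 rises (42.5% of genes tested) and 8662 falls (32.8%), and the groups did not overlap in 76.8% of genes. Every list below was chosen with earlier results of these data known, and its counts are to be read against these shares and against the median log2 fold change of all genes, 0.18. Without the conflicting libraries the medians of 36 of the 37 lists kept their sign, the exception being proteasome genes (-0.03, then 0.07), and the largest move of a median was 0.443, for dendritic cells and macrophages (3.06, then 3.50). All 12 genes of mature mTECs rose, with a median of 2.38 (2.46 under WT titles). Cd80 and Cd86, the ligands of the T cell costimulator CD28, rose by 4.13 and 4.91. Cd86 went from 0.932, 1.07 and 1.18 CPM to 29.9, 34.3 and 31.5 CPM. Cd40, the receptor through which T cells license mTECs, rose by 2.89, and Fscn1, an actin-bundling protein, by 3.50. The smallest rise was that of Spib, a transcription factor (0.49).

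In the list for immature and Ccl21-producing mTECs, 11 of 12 fell and none rose (median -2.73, -2.60 under WT titles). Krt5 and Krt14, the keratins of basal epithelium, fell by 2.71 and 3.01 on the log2 scale. Krt14 stood at 2016, 2193 and 2329 CPM in mTEC lo and at 259, 291 and 262 CPM in mTEC hi. Apoe, a lipid carrier, fell by 3.88, Pdpn, a surface glycoprotein of the corticomedullary junction, by 3.11, and Trp63, the regulator of epithelial progenitors, by 2.10. The exception was Krt15, at 33.2 to 34.7 CPM in mTEC hi and at 34.1 to 34.8 CPM in mTEC lo, which did not pass (edgeR adjusted p = 0.798).

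By fitted fold, rises of at least 8-fold numbered 5382 and falls of that size 324. The genes that rose at least 8-fold were mostly faint: by median they had 1.04 CPM in mTEC hi against 0.0285 CPM in mTEC lo, 1404 of them had no read in mTEC lo titled KO, where the fitted fold depends on the prior count and is no bound, and 794 reached 10 CPM in either cell type. Together they held 5.27% of CPM in mTEC hi against 0.309% in mTEC lo. The genes that fell at least 8-fold had a median of 34.9 CPM in mTEC lo cells, with 2.79 CPM in mTEC hi. Though fewer, the falls held a like share, 5.45% of CPM in mTEC lo against 0.449% in mTEC hi. Between libraries of the same number, 5353 of the 5382 rises and 319 of the 324 falls went the same way in all 3 pairs. These genes were picked by their change in the same libraries, so that agreement was nearly fixed in advance and is no separate support. The split depends on the scaling: rises were 56.4% of the calls under TMM and 70.5% when only library size was scaled for, a setting in which the all-gene median was 0.51 and not 0.18. Without the conflicting libraries 10497 genes rose and 7651 fell.

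The largest rises among well-expressed protein-coding genes included some known from other tissues. Lefty2, a secreted inhibitor of Nodal signalling (chromosome 1, 180893108 to 180899103, plus strand), was at 54.0, 49.4 and 43.6 CPM in mTEC hi and at 0.0948, 0.159 and 0.0683 CPM in mTEC lo. That is a log2 fold change of 8.82 (SE 0.23), beside 8.81 under WT titles. Calcr, the calcitonin receptor, was at 23.1, 19.3 and 21.6 CPM in mTEC hi and below 0.1 CPM in each mTEC lo library. It rose by 8.83 (8.41 to 9.67 with 1 library left out). With 8 reads over the mTEC lo libraries, its SE of 0.32 is likely too small. Madcam1, the adhesion molecule of mucosal vessels, rose by 8.64 and had no read in the lo library numbered 1; without that library the value was 8.01, and without the lo library numbered 3 it was 9.23. Calb2, the calcium-binding protein calretinin, rose by 7.54 (7.14 to 8.50 with 1 library left out). The others were Apol11b of the apolipoprotein L family (7.87), the milk casein Csn1s2a (7.82), the secreted Angptl7 (7.55) and the liver plasma protein Itih4 (7.50). Under WT titles the changes of these 8 genes ran from 6.83 for Itih4 to 8.81 for Lefty2. Non-overlap of the cell types was a condition for naming them, not a result.

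The largest falls were led by Gas1, a Hedgehog co-receptor (chromosome 13, 60174405 to 60177365, minus strand). It was at 678, 762 and 752 CPM in mTEC lo and at 20.5, 16.7 and 14.96 CPM in mTEC hi. It fell by 5.39 on the log2 scale (SE 0.11; -5.31 under WT titles). Boc, another Hedgehog co-receptor, was at 540, 576 and 607 CPM in mTEC lo and at 24.1, 24.4 and 24.1 CPM in mTEC hi (-4.57, SE 0.07). Next to them fell Mgp, the matrix Gla protein that inhibits calcification (-4.83), Fst, the activin antagonist follistatin (-4.78), Tril, an accessory protein of Toll-like receptor 4 (-4.71), Myl9, a myosin light chain of contractile cells (-4.51), the sulfotransferase Sult5a1 (-4.49) and the scramblase Plscr2 (-4.48). That all 3 mTEC hi libraries lay below all 3 mTEC lo libraries was a condition for naming these 8 genes, not a result.

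By level per gene length, genes of antigen presentation were among the most abundant called genes in mTEC hi. Cd74, the invariant chain of MHC class II, had a mean of 18483 TPM in mTEC hi and 6225 TPM in mTEC lo (log2 fold change of the counts 1.196). H2-Aa, an MHC class II chain, had 8915 TPM and 2809 TPM. In mTEC lo, Ccl21a led the called genes, followed by the mitochondrial mt-Co1, a subunit of cytochrome oxidase, at 15740 TPM against 9757 TPM in mTEC hi (-1.07). In mTEC hi, too, mt-Co1 stood above H2-Aa. Tpt1, the translationally controlled tumour protein, fell from 7172 TPM to 4011 TPM (-1.24).

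The sequence before the start of such genes was read for motifs. Shown are the 100 bases before the RefSeq start (GRCm38.p6 promoter table), 5′ to 3′ on the gene's strand, for the markers, for rises of more than 7 on the log2 scale with and without a TATAAA motif, and for a fall. Capitals mark TATAAA, the core of the TATA box at which the general transcription machinery can assemble.
Aire, chr10:78043611-78043710, minus strand: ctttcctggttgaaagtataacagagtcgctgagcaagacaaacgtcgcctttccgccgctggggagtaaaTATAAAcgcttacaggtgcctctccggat
Pgc, chr17:47726742-47726841, plus strand: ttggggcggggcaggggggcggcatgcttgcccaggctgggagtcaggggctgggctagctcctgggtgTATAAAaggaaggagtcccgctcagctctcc
Il13, chr11:53634703-53634802, minus strand: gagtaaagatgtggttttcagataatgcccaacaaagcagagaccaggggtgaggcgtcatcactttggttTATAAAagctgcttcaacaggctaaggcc
Col10a1, chr10:34389881-34389980, plus strand: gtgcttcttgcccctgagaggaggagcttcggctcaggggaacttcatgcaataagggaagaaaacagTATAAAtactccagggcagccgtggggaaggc
Calcr, chr6:3764714-3764813, minus strand: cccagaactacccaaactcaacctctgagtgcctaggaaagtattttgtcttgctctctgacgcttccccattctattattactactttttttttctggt
Madcam1, chr10:79664459-79664558, plus strand: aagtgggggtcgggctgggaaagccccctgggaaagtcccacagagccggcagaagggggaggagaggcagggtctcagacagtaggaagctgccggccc
Ccl21a, chr4:42773992-42774091, minus strand: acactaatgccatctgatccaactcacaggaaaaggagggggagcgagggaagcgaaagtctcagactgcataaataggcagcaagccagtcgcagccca
Tril, chr6:53820826-53820925, minus strand: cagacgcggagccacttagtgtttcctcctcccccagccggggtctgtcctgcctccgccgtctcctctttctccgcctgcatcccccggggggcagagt

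Pgc encodes the gastric protease precursor progastricsin (log2 fold change 7.40, SE 0.21), Il13 a cytokine of type 2 immunity (7.34, SE 0.16) and Col10a1 the collagen of growth plate cartilage (7.26, SE 0.21). They were shown for their motif, not by the rule for named genes. In the 300 bases around the start (250 before and 50 after), Pgc has 9 CpG, Il13 3, Col10a1 6, Calcr 4 and Madcam1 8. Aire has 16, Ccl21a 5 and Tril 26. A match is a description of letters and not a binding site.

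Over the 16469 genes with a single start in the table, TATAAA on the gene's strand, 50 to 11 bases before the start, stood in 3.19%. It was in 218 of the 2649 genes that rose at least 8-fold (8.23%), in 2.92% of the other genes that rose, in 1.53% of genes not called, in 1.08% of genes that fell less than 8-fold and in 7 of the 161 that fell at least 8-fold (4.35%). CpG-poor promoters, with at most 4 CpG in 300 bases, made up 52.2% of the steep rises against 27.3% of all promoters and 6.35% of the genes that fell less than 8-fold. The median was 4 CpG for steep rises, 14 for smaller rises, 21 for falls under 8-fold and 13 for steep falls. Genes not tested, with hardly any reads in either cell type, were still poorer in CpG (median 2, with 84.1% of promoters at 4 or fewer), and 5.18% of them held TATAAA in place. The steep rises thus lay between the other tested classes and the untested genes in CpG, and above all classes in TATAAA at that position. Anywhere in the 300 bases, on either strand, TATAAA stood in 21.1% of steep rises, below the 31.3% of untested genes and above the 12.8% of all promoters.

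**Figure D2:**
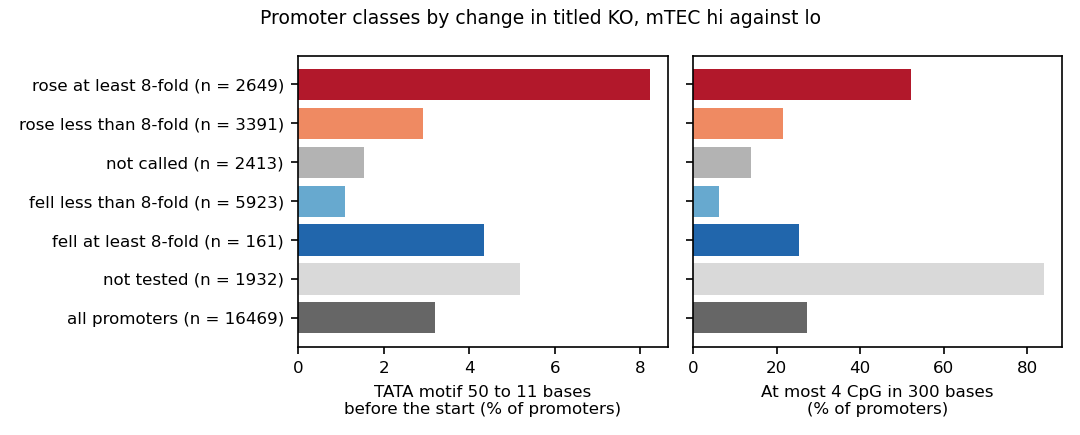
Percent of promoters with a TATA motif 50 to 11 bases before the start (left) and with at most 4 CpG in 300 bases (right), by the change of the gene in the libraries titled KO; bars are shares of the promoters numbered beside each class. Genes that rose at least 8-fold had the motif in 8.23% of promoters against 3.19% of all, and few CpG in 52.2% against 27.3%.

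Antigens of other tissues were among the steep rises. Of 13 measured Aire-dependent antigens 11 rose and 1 fell, with a median of 5.82 (6.78 under WT titles); with the 3 genes that had no read in mTEC lo set at their lower bound, the median was 5.70. Csn2, beta-casein of milk, was at 1107, 980 and 943 CPM in mTEC hi and at 31.0, 17.2 and 17.0 CPM in mTEC lo (5.54). Ins2, insulin, rose by 5.70 (6.78 under WT titles), S100a8, a calcium-binding protein of neutrophils, by 5.82, and Amelx, the enamel protein amelogenin, by 6.83. Il3, a cytokine of T cells, had 3.33, 3.37 and 3.33 CPM in mTEC hi and no read in mTEC lo, which makes it at least 199-fold higher if 3 reads in all are taken as the mTEC lo floor. Rbp3, a retinal protein, was at least 59.7-fold higher by the same floor. Crp, the acute phase C-reactive protein, fell by 1.89, and Sst, somatostatin, stood at 21.5 to 28.2 CPM in mTEC hi, against 19.9 to 22.5 CPM in mTEC lo, which did not pass (edgeR adjusted p = 0.377).

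All 12 antigens of the Fezf2-dependent list rose (median 3.59, 3.81 under WT titles). Fezf2 itself, the other known regulator of tissue antigens in mTECs, was at 561, 549 and 565 CPM in mTEC hi and at 221, 182 and 229 CPM in mTEC lo. Fezf2 rose by 1.41, without overlap between the cell types. Coch, an inner ear protein, was at 94.1, 94.9 and 87.5 CPM in mTEC hi, against near 1 CPM in mTEC lo (6.31). Apob, the scaffold of lipoproteins, rose by 5.77, and Calb1, calbindin, by 5.69. Mup4, a urinary protein, rose by 6.60 against 9.28 under WT titles. That difference did not pass, and the gene was at no more than 0.079 CPM in any mTEC lo library titled KO.

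Breadth of expression was compared at equal depth, each library thinned to 38791960 reads. In mTEC hi titled KO 27275, 26745 and 26861 genes had at least 5 reads, and in mTEC lo 21235, 20977 and 20860. The groups lie apart, with means of 26960 ± 279 and 21024 ± 192 (SD, n = 3 each), an excess of 5936 genes or 28.2%. The exact two-sided permutation p was 0.1, the smallest that 3 against 3 libraries can give. Under WT titles the excess was 5656 genes. The excess differed between the titles by 280 genes (two-sided p = 0.33, exact permutation of titles within cell type). Among protein-coding genes alone 18943 ± 48.6 and 16276 ± 34.2 were detected (SD, n = 3 each). Without the conflicting libraries the excess was 5904 genes. Reads that fell in no annotated gene also moved with the cell type, at 14.2%, 13.04% and 14.8% of reads in mTEC hi and 9.83%, 7.42% and 8.81% in mTEC lo, and their part in the count was not tested.

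**Figure D3:**
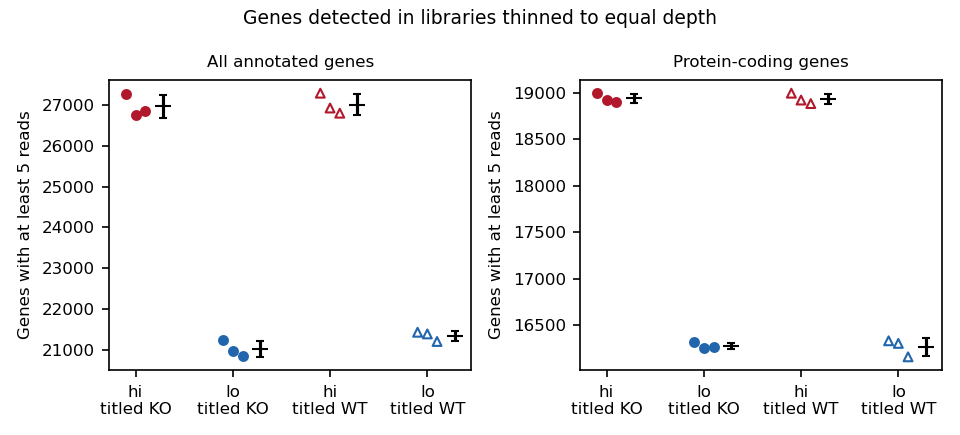
Number of genes with at least 5 reads after each library was thinned to 38791960 reads, for all annotated genes (left) and protein-coding genes (right); each point is 1 library, and bars show mean ± SD of 3 libraries. The axes do not start at 0. The 3 mTEC hi libraries titled KO lay between 26745 and 27275 genes and the 3 mTEC lo libraries between 20860 and 21235.

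The programmes of mimetic cells did not move as a block. All 16 tuft cell genes fell, with a median of -2.43 (-2.45 under WT titles); tuft cells are chemosensory cells of mucosae. Trpm5, their taste channel, was at 510, 500 and 397 CPM in mTEC lo and at 64.4, 83.3 and 73.1 CPM in mTEC hi, and Alox5ap of leukotriene synthesis (-3.42) and the cytokine Il25 (-3.18) fell most. The lineage regulator Pou2f3 fell least but for Hpgds (-0.75 and -0.46). The 3 mTEC lo libraries were uneven here: the library numbered 3, whose labels conflict, was the lowest of them for all 16 genes, with Avil at 497, 469 and 342 CPM and Sh2d6 at 340, 231 and 194 CPM.

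Muscle genes went the other way. Of 18, 14 rose and 2 fell (median 2.74, 2.67 under WT titles). Myh3 and Myh8, the embryonic and perinatal myosin heavy chains, rose by 6.63 and 7.03. Ttn, the giant sarcomere protein titin, was at 156, 156 and 216 CPM in mTEC hi and at 18.7, 21.3 and 30.7 CPM in mTEC lo. Myod1, a master regulator of muscle, rose by 7.05 from at most 0.0176 CPM in mTEC lo. Myog, the regulator of muscle differentiation, was at 6.47 to 7.10 CPM against 7.07 to 8.43 CPM and did not pass (edgeR adjusted p = 0.277), and Acta1 and Des fell. All 14 enterocyte and hepatocyte genes rose (median 2.06, 1.598 under WT titles). Alb, albumin, was at 20.7, 24.0 and 18.6 CPM in mTEC hi and at 0.347, 0.123 and 0.0171 CPM in mTEC lo. It rose by 6.96 (6.47 to 8.20 with 1 library left out). Apoa1 rose by 4.55, and Hnf4a and Hnf4g, regulators of such genes, by 1.49 and 2.20.

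Ciliated, skin, microfold, secretory and neuroendocrine genes were divided. Of 14 genes of ciliated cells 9 rose and 2 fell (median 0.72, 1.05 under WT titles), with Mcidas, which starts multiciliation, rising by 5.18 and the dynein Dnah9 by 2.30 while the dynein Dnah11 fell by 1.79. Of 18 genes of keratinocytes and cornified cells 7 rose and 2 fell, against 13 and 1 under scaling by library size alone, and 7 and 5 under WT titles. Tgm3, a transglutaminase of the cornified envelope, rose by 4.19 and Krt77 by 1.73, Krtdap fell by 0.86, and 9 genes, among them Ivl and Lor, did not pass. Of 10 genes of microfold-like cells 5 rose and 3 fell, Ccl20 (1.504) and Ccl9 (1.42) highest, while Gp2, their uptake receptor, fell by 1.24. Of 14 secretory and ionocyte genes 8 rose and 5 fell: the trefoil peptides Tff2 and Tff3 rose by 4.16 and 3.05, and Ltf, lactoferrin, fell by 2.23. Of 14 neuroendocrine genes 5 rose and 8 fell. The transcription factor Insm1 was at 261, 261 and 262 CPM in mTEC hi and at 37.3, 30.1 and 37.3 CPM in mTEC lo (2.905), whereas the granule proteins Chga (-1.44) and Scg2 (-1.71) fell.

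Among 28 lineage factors of mimetic cells, the transcription factors behind these programmes, 16 rose and 7 fell (median 0.70, 0.59 under WT titles). Sox10, a factor of glia and pigment cells, rose by 4.73 (4.25 to 5.41 with 1 library left out). Neurog3, of endocrine progenitors, rose by 1.41, and Grhl3, of skin barrier, by 1.54. Spdef, of goblet cells, fell by 0.94.

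**Figure D4:**
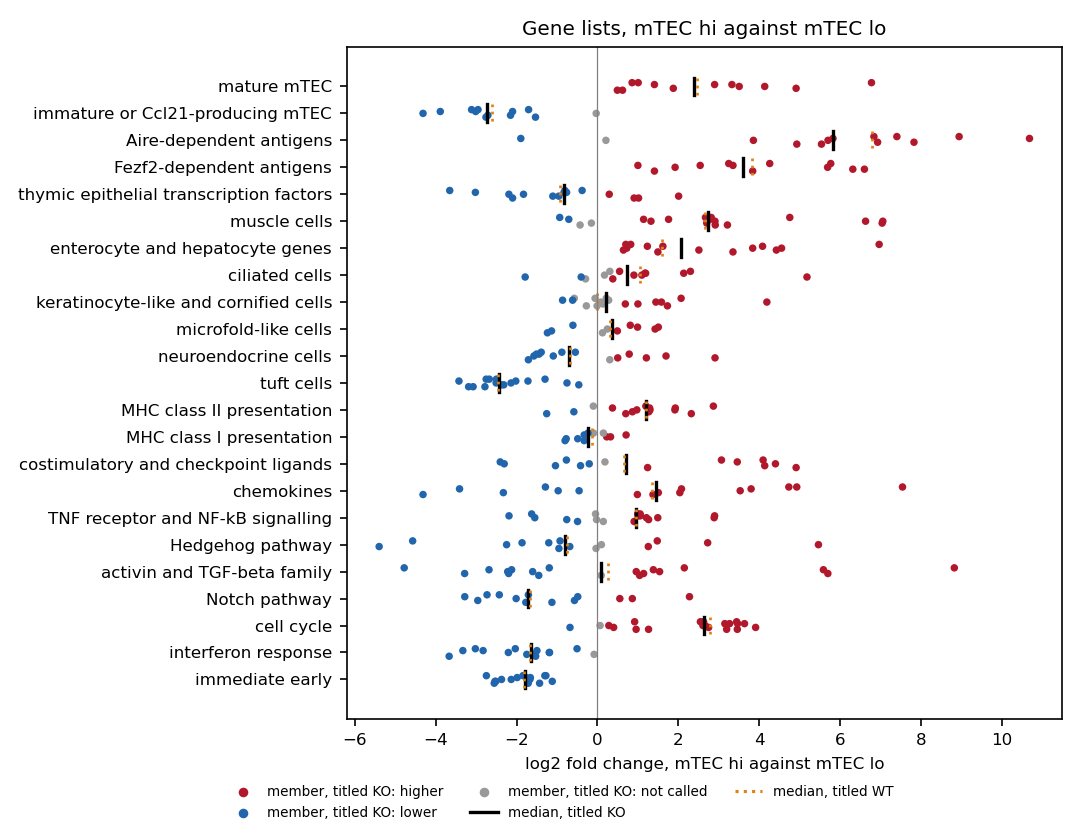
Log2 fold change of mTEC hi over mTEC lo for each member of 23 gene lists in the libraries titled KO; each point is 1 gene (red rose, blue fell, grey not called), the black line is the list's median under KO titles and the dotted orange line its median under WT titles. Medians ran from -2.73 for immature or Ccl21-producing mTECs to 5.82 for Aire-dependent antigens.

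Genes of antigen presentation split by pathway. MHC class II was the mark on which cells were sorted, so its direction is not independent: 12 of 15 genes rose and 2 fell (median 1.196, and 1.198 under WT titles). H2-Aa rose by 1.27 and Ciita, the master regulator of the pathway, by 1.29. H2-Ob and H2-Oa, which restrain peptide loading, rose by 2.86 and 2.32. H2-DMa, of the loading catalyst, was at 111 to 124 CPM in mTEC hi, against 125 to 130 CPM in mTEC lo and did not pass (edgeR adjusted p = 0.174). Lysosomal proteases, which cut proteins for this pathway, divided into 4 rises and 7 falls of 12. Ctss rose by 1.91 and Ctsh by 2.49, while Ctsl, which was at 1678, 1936 and 1799 CPM in mTEC lo, fell by 3.06.

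In the MHC class I pathway, which beta5t serves in the cortex, 3 of 11 genes rose and 6 fell, with a median of -0.23 (-0.14 under WT titles). Under scaling by library size alone 5 rose and 2 fell, and the median was 0.09. The peptide transporters Tap1 and Tap2 fell by 0.77 and 0.80, H2-K1 by 0.23 and H2-D1 by 0.33. B2m, at 5203 to 5404 CPM in mTEC hi, against 5158 to 6029 CPM in mTEC lo, did not pass (edgeR adjusted p = 0.293). Of 12 proteasome subunits and activators 4 rose and 3 fell (median -0.03). The split was not firm: it was 8 and 1 under scaling by library size alone (median 0.30) and 5 and 2 under RLE size factors (0.05). Psmb9 and Psmb8, the immunoproteasome subunits beta1i and beta5i, fell by 0.69 and 0.26, the last at 97.3, 99.5 and 87.5 CPM in mTEC hi and 116, 112 and 113 CPM in mTEC lo. Psmb8 was not called without the conflicting libraries (-0.18, edgeR adjusted p = 0.0575), and its sign turned under scaling by library size alone (0.07). Psmb10, beta2i, rose by 0.78, and the activator subunits Psme1, Psme2 and Psme3 rose by 0.31, 1.01 and 0.80. Between the titles the change of Psmb5 differed by -0.10 (95% interval -0.35 to 0.15) and that of Psmb8 by -0.13 (-0.32 to 0.06).

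Of 14 costimulatory and checkpoint ligands measured 7 rose and 6 fell (median 0.71, 0.66 under WT titles). Beside Cd80 and Cd86, Icosl rose by 3.06, Cd70 by 4.40, Tnfsf4, the OX40 ligand, by 4.09 and Tnfsf9, the 4-1BB ligand, by 3.45. Among inhibitory ligands Cd274 (PD-L1) fell by 0.77, Vsir (VISTA) by 2.30 and Lgals9 (galectin-9) by 2.40. Of 16 chemokines 10 rose and 6 fell. Ccl22, the CCR4 ligand, was at 146, 196 and 147 CPM in mTEC hi and at 6.11, 4.70 and 5.21 CPM in mTEC lo (4.92). Xcl1, which attracts cross-presenting dendritic cells, rose by 7.54 (7.05 to 8.72 with 1 library left out) and Ccl25 by 3.80. Besides Ccl21a, Cxcl12 fell by 3.41 and Cx3cl1 by 2.33.

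Signalling pathways of mTEC growth were measured by their ligands, receptors and targets. In TNF receptor and NF-kB signalling, the route by which RANK and CD40 drive mTEC maturation, 10 of 18 genes rose and 5 fell (median 0.95, 0.94 under WT titles). Tnfrsf11a, which encodes RANK, rose by 1.01, and Tnfrsf11b, which encodes a decoy receptor for the RANK ligand, by 2.88. The non-canonical subunits Relb and Nfkb2 rose by 0.91 and 1.06, while Rela and Nfkb1 of the canonical pathway fell by 0.76 and 0.49, as did Ltbr, the lymphotoxin receptor (-1.55). In the Hedgehog pathway 4 of 14 genes rose and 8 fell (median -0.80, -0.74 under WT titles). The rises included all 3 ligands: Dhh went from 1.03, 1.57 and 1.49 CPM to 60.5, 61.0 and 57.6 CPM (5.46), Shh rose by 2.72 and Ihh by 1.26. Smo, the signal transducer (-2.25), the receptor Ptch1 (-0.95), the effector Gli3 (-1.86) and the co-receptors Gas1, Boc and Cdon (-1.204) fell.

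In the activin and TGF-beta family 9 of 19 genes rose and 9 fell (median 0.09, 0.27 under WT titles). Nodal (5.58) and its co-receptor Tdgf1 (5.69, or 5.40 to 6.29 with 1 library left out) rose with their inhibitor Lefty2. The activin subunit gene Inhbb rose by 1.14. The receptors Tgfbr2 (-3.28), Tgfbr1 (-1.602), Acvr2a (-2.12) and Acvr1b (-1.19) and the feedback inhibitor Smad7 (-2.22) fell. In the Notch pathway 10 of 13 genes fell and 3 rose (median -1.71, -1.66 under WT titles). The receptor Notch3 (-2.73), the ligands Jag2 (-3.28) and Dll1 (-2.43) and the targets Hes1 (-2.01) and Hey1 (-2.96) fell, and the ligand Dll4 rose from 7.39, 9.14 and 10.9 CPM to 44.3, 46.4 and 42.0 CPM (2.27).

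Of 15 transcription factors of the thymic epithelium 4 rose and 11 fell (median -0.83, -0.93 under WT titles). Foxn1, the master regulator of thymic epithelium, rose by 1.02, from 103, 95.9 and 119 CPM to 212, 209 and 221 CPM. Factors of thymus patterning fell: Hoxa3 by 3.65, Eya1 by 2.19, Pax1 by 1.83 and Pax9 by 1.10. Of 21 genes of Aire partners and chromatin 6 rose and 12 fell, and their median of -0.24 (-0.31 under WT titles) became 0.09 under scaling by library size alone, with 9 rises and 6 falls. Sirt1, the deacetylase that Aire function needs, was at 524, 504 and 547 CPM in mTEC hi and at 68.4, 75.6 and 68.3 CPM in mTEC lo (2.89). Top2a (3.46), which is also a gene of dividing cells, rose, and Xrcc5 (-1.79) fell.

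Of 20 cell cycle genes 18 rose, Ccnd1 fell by 0.68 and the inhibitor Cdkn1a did not pass (median 2.64, 2.78 under WT titles). Mki67, the proliferation marker, was at 180, 171 and 230 CPM in mTEC hi and at 16.7, 22.9 and 21.0 CPM in mTEC lo. The mitotic genes Bub1 and Ccnb1 rose by 3.91 and 3.63, and the replication genes Mcm2 and Pcna by 0.40 and 0.28. Of 14 interferon response genes 13 fell and none rose (median -1.65, -1.67 under WT titles). Irf7, their amplifier, was at 580, 508 and 558 CPM in mTEC lo and at 68.6, 72.5 and 62.4 CPM in mTEC hi (-3.02), and Ifit3 fell by 3.67.

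All 16 immediate early genes fell, a class that tissue dissociation can induce (median -1.80, -1.82 under WT titles). Fos was at 5458, 6131 and 6720 CPM in mTEC lo and at 899, 1170 and 1054 CPM in mTEC hi. Of 12 heat shock genes 5 fell and 2 rose. Hspa1a fell by 1.71 and Dnajb1 by 1.74, the mitochondrial chaperone Hspd1 rose by 0.77, and the median of -0.08 turned to 0.00 under RLE size factors and to 0.25 under scaling by library size alone, with 7 rises and 5 falls. The immediate early genes moved in the same direction as the immature, tuft and interferon genes, and their part in those falls was not tested.

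Markers of other cells that the sort could hold moved with the cell type. All 8 B cell genes rose, and the list summed to 184 to 187 CPM in mTEC hi against 42.2 to 52.2 CPM in mTEC lo. Most of that sum was Fcer2a (109 CPM in each mTEC hi library). Of 13 genes of dendritic cells and macrophages 12 rose and Sirpa fell, with sums of 567 to 582 CPM against 125 to 156 CPM. Lyz2 was the largest share (399 to 421 CPM), and Flt3 was at 13.3, 13.6 and 12.4 CPM against 0.111, 0.511 and 0.239 CPM. B cells and dendritic cells carry MHC class II, Cd86 and Ccl22 too, and their part in the rises of those genes was not tested. Of 8 erythroid genes 7 rose, at sums of 24.0 to 26.5 CPM against 2.37 to 5.64 CPM. No listed marker of these 3 types was at 0 in either cell type.

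Of 15 thymocyte genes 4 rose, 1 fell and 10 did not pass. The sum was 344 CPM in the mTEC hi library numbered 1 and 192 and 207 CPM in the other two, against 107 to 168 CPM in mTEC lo. Rag1, of receptor rearrangement, shows the uneven library, at 41.5, 12.2 and 10.8 CPM in mTEC hi. The list's median was 0.51 with it and -0.18 without it; leaving it out changed the counts over all genes to 11181 rises and 8413 falls. Endothelial genes were at like sums (56.1 to 59.9 CPM and 56.9 to 71.6 CPM), with 1 of 8 lower. Of 10 fibroblast and mesenchymal genes 6 fell, Acta2 by 3.84, and 4 rose, Pdgfrb by 3.51. The cortical list had 6 rises and 3 falls of 12. Of its specific genes Prss16, at 49.0 to 54.2 CPM and 53.1 to 68.6 CPM, did not pass. Psmb11 did not pass either, but as the targeted gene it cannot report cortical cells under KO titles. Epithelial identity genes fell in 6 of 9 cases, with sums of 4427 to 4994 CPM in mTEC hi, against 11847 to 13169 CPM in mTEC lo, while Krt8 was at 1387 to 1586 CPM and 1571 to 1728 CPM and did not pass (edgeR adjusted p = 0.113).

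The last comparison asked whether the maturation contrast itself differs with the title. Of 26372 genes, 0% passed the test of the difference (0 genes, edgeR, lowest adjusted p = 0.121), and 1411 (5.35%) had an unadjusted p below 0.05. DESeq2 called 3 genes, and the edgeR fit without a filter on low counts called 145. Of those 145, 131 were also tested in the main fit, where none passed, so the count depends on the fit setting. The median absolute difference of the 145 was 1.98 on the log2 scale. All lists above had 0 members called for the difference in the main fit. Without the conflicting libraries 0 genes passed, but that fit held only 8 libraries and had little power, so its 0 is no separate support. Of the genes called in titled KO, 92.7% were called in the same direction under WT titles, and 1 gene was called in opposite directions. Across the 17621 genes that averaged 1 CPM or more the 2 log2 fold changes had a Pearson r of 0.98, as a description of genes fitted in 1 model. The median size of their difference was 0.11. Among the 2364 genes called and changed at least 8-fold at that level, the median titled KO change was 1.01 times the titled WT change.

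How tightly the data bound a difference depends on the gene. Among genes of at least 1 CPM, the 95% interval of the difference lay within 0.58 on the log2 scale, or about 1.5-fold, for 11127 (63.1%) and within 1, or 2-fold, for 14602 (82.9%). The other genes allow larger differences. For Aire the difference was -0.03 (95% interval -0.62 to 0.56). For Ccl21a it was -0.11 (-0.42 to 0.20), for Cd74 0.00 (-0.25 to 0.24), for Krt14 -0.15 (-0.38 to 0.09), for Foxn1 0.04 (-0.19 to 0.27) and for Boc -0.01 (-0.20 to 0.19). Of the immature list no member differed by more than 0.21, and of the Fezf2-dependent list Mup4 differed most, by 2.68.

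**Figure D5:**
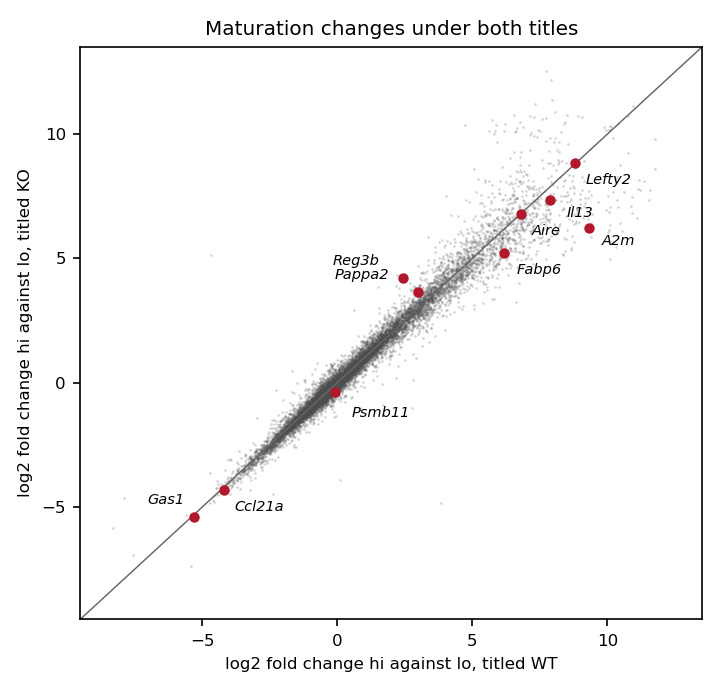
Log2 fold change of mTEC hi over mTEC lo under KO titles (vertical) against that under WT titles (horizontal) for the 17621 genes that averaged 1 CPM or more; each point is 1 gene, the line marks equal change, and named genes are in red. Points lie along the line (Pearson r of 0.98), with Reg3b above it and A2m and Fabp6 below it.

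The 5 genes of lowest p in this test are given as values, since none passed in the main fit. Under the other settings 98 of their values kept direction and call and 7 gained the call. Only DESeq2 and the fit without the filter called any difference. Pappa2, a protease that frees insulin-like growth factors (chromosome 1, 158711727 to 158980490, minus strand), was at 58.1, 62.7 and 59.3 CPM in mTEC hi titled KO and at 4.69, 4.84 and 4.68 CPM in mTEC lo. Under WT titles it was at 56.3, 55.9 and 52.5 CPM and at 7.15, 7.19 and 6.52 CPM. Its log2 fold changes were 3.66 and 2.98, a difference of 0.68 (95% interval 0.46 to 0.90, edgeR adjusted p = 0.121). The titles did not overlap in either cell type: titled KO libraries were all lower in mTEC lo and all higher in mTEC hi. Pappa2 was picked for its low p in these same libraries, so that separation was nearly fixed in advance and is no separate support. Fabp6, the bile acid-binding protein of the ileum, was at 1.5, 1.11 and 1.14 CPM in mTEC lo titled KO and at 0.602, 0.610 and 0.562 CPM under WT titles, with 45.2 to 48.6 CPM and 40.3 to 46.3 CPM in mTEC hi. Its changes were 5.22 and 6.18, a difference of -0.96 (-1.34 to -0.58, edgeR adjusted p = 0.537). Reg3b, an antimicrobial lectin of the gut, changed by 4.23 and 2.45. A2m, a protease inhibitor of plasma, changed by 6.21 (5.85 to 6.83 with 1 library left out) and 9.32. Prlh, a neuropeptide, had no read in mTEC lo titled KO and 0.0753 to 0.0937 CPM under WT titles. In a direct test of the titles within mTEC lo, Psmb11 (-2.72), Pappa2 (-0.55, edgeR adjusted p = 0.0228) and Fabp6 (1.08, edgeR adjusted p = 0.0228) were called, and within mTEC hi Psmb11 (-3.001) alone. These tests use the same libraries as the difference.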

How the data were processed

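RNA of 12 libraries was measured; the submitters' processing notes name CASAVA 1.8.2, STAR 2.5.1b and RSEM 1.2.28 without their roles, and a build called GRCh38, a human name, although gene identifiers are those of mouse. The deposited count tables give whole reads per gene with strand ignored, so overlapping and antisense genes cannot be told apart. Reads in no gene stayed out of library sizes (7.42% to 14.8% in the libraries titled KO). The authors' RSEM files give expected counts, rounded for an alternative fit, and TPM, used only to compare levels between genes.

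Groups came from sample titles. Of 50600 identifiers, 50376 matched GENCODE M21 (GRCm38). Counts of all 12 libraries, in 4 groups, were fitted with edgeR 4.0.16 (R 4.3.3; limma 3.58.1) by quasi-likelihood after filterByExpr (minimum count 10, total 15) and TMM, with Benjamini-Hochberg adjustment at 0.05; the difference between titles is the interaction. SE is the log2 fold change divided by the square root of F. The procedure was tested on simulated data. DESeq2 1.42.0, other scalings, no filter, a 1.5-fold minimum, RSEM counts, other label sets, replicate blocks and each library left out were alternatives.

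Members and lists were chosen with earlier results of these data known. Named by rule were the 8 largest rises and falls averaging 10 CPM or more without overlap, the 2 largest called changes of each list (at least 1 CPM), the 5 lowest p of the difference, the 5 most abundant called genes of each cell type, and Psmb11, Aire, Ccl21a, Psmb5 and Psmb8. Other list members named are examples chosen after their values were seen. Replicate numbers were checked for pairing: deviations of same-numbered hi and lo libraries titled KO correlated at 0.191, 0.113 and 0.141. Libraries numbered 1, which are not hi and lo pairs, correlated as much across titles (0.187 in mTEC hi, 0.192 in mTEC lo). The other numbers gave -0.073 to 0.058 across titles. Whether the numbers mark pairs was therefore not settled, and the main fit did not pair libraries. Sequence came from the RefSeq promoter table (GRCm38.p6). Genes with few or no reads in mTEC lo carry large counting error there.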

Additional observations from a re-analysis of the deposited data

How the results depend on the processing

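Leaving out each library titled KO in turn gave 11088 to 11560 rises, 8192 to 8546 falls, an excess of 5779 to 6044 detected genes and 0 to 0 genes called for the difference between titles. With the title's number as a replicate block, which also joins the titles, 11197 genes rose, 8636 fell and 0 differed between titles; with a block for each of the 6 pairs of hi and lo, chosen after seeing the data, the counts were 10945, 8487 and 0. Neither block changed the call of a named gene. Falls numbered 5680 under scaling by library size alone and 4447 when a change of at least 1.5-fold was required. The difference between titles called 3 genes in DESeq2 and 145 in edgeR without the filter, where 42255 genes were fitted and the prior degrees of freedom were infinite instead of 8.99; otherwise the cause was not tested. The excess of detected genes was 7627 at 1 read or more, 5011 at 10 reads or more and 2667 among protein-coding genes.

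Signs turned for Psmb11 (0.052 by source name), for Psmb5 (-0.02 without hi replicate 1, -0.03 without hi replicate 2, -0.0399 without lo replicate 1, and up to 0.111 without hi replicate 3), and under scaling by library size for Psmb8 (0.0658) and Eef1a1 (0.0943). List medians turned under that scaling for Aire partner genes (0.089), MHC class I (0.0934), heat shock (0.25), proteasome genes (0.30) and endothelial cells (0.16); under RLE and DESeq2 for heat shock (0.0034 in both) and proteasome genes (0.05 in both); with RSEM counts for heat shock (0.0465), proteasome genes (0.05) and endothelial cells (0.10); for proteasome genes also without the conflicting libraries (0.07), by source name (0.07), without the filter (0.01) and with 1 library left out (-0.0883 to 0.0578); and for thymocytes without hi replicate 1 (-0.18, against 1.018 without lo replicate 1). Of the settings tried for named genes, 1697 values of the hi against lo change kept direction and call, 12 lost the call and 1 gained it. For the named differences between titles, 98 values kept both and 7 gained the call.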

Other observations

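Gene families formed by symbol, after the values were seen, moved in both directions in the libraries titled KO, against 42.5% of all genes higher and 32.8% lower. Of 254 olfactory receptors tested, out of 1134 annotated, 232 rose and 1 fell, with a median log2 fold change of 6.31 (6.06 under WT titles). Of 33 defensins, antimicrobial peptides, 32 rose and none fell (median 6.32), and all 26 kallikreins, secreted proteases, rose (3.68). Among 95 cytochrome P450 genes 77 rose and 11 fell (3.70), among 53 keratins 39 and 7 (2.93), and among 39 Hox genes, which pattern the body axis, 29 and 8 (2.32). Only genes with enough reads were tested, so a gene read in mTEC hi alone had to be higher, and near-identical copies can share reads.

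Falls outnumbered rises in other families. Of 377 zinc finger genes of the Zfp series 43 rose and 274 fell (median -0.58; 67 and 185 under scaling by library size alone). Of 74 genes of cytosolic ribosomal proteins 2 rose and 68 fell (-0.52; 4 and 38 under that scaling), and of 60 protocadherins 9 rose and 41 fell (-1.40; 11 and 36). By annotated type, 62.9% of 1801 lincRNAs were higher and 10.1% lower (median 2.21), as were 68.2% and 8.61% of 267 unprocessed pseudogenes (3.63), beside 42.0% and 41.0% of 18809 protein-coding genes. These shares are of tested genes only, so members read in mTEC hi alone had to be higher, and they do not describe the whole types. No member of these families was called for the difference between titles in edgeR.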
